A study of Mus musculus with 9 samples.

Results

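The 50 genes described here encode the digestive enzymes, proton pump subunits, membrane proteins and transcription factors of the lysosome and were picked by name from the 54532 genes of the expression table. They comprised 16 proton pump genes, 8 cathepsins, 9 glycosidases, 8 enzymes and carriers of lipids, 4 membrane proteins or channels, 2 transcription factors and a set of 3 genes that holds 2 further proteases and granulin. Expression was measured by RNA-seq of poly(A)-selected RNA from RAW264.7 cells, a mouse macrophage line that the labels give as wild type and as coming from ascites. The 3 groups of 3 libraries each were untreated cells (control), cells kept for 6 h in LPS at 1 μg/ml (LPS), and cells kept for 6 h in the same dose of LPS and 400 μg/ml of G-CDs (LPS + G-CDs). LPS, the lipopolysaccharide of Gram-negative bacteria, activates macrophages through Toll-like receptor 4, and G-CDs are carbon dots made from *Glycyrrhiza*, the licorice plant. The treatment label of the LPS + G-CDs libraries names LPS alone, and G-CDs stand in their titles and in the series' design. All libraries come from 1 cell line, no source used here says whether those of a group came from separate cultures, and no cells given G-CDs without LPS were analysed here.

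The lysosome is the acidic compartment in which macrophages break down proteins, sugars and lipids taken up from outside or delivered from inside the cell. Its acidity is made by the vacuolar proton pump, in which a cytosolic V1 sector burns ATP to drive protons through a membrane-embedded V0 sector, and the cathepsins, glycosidases and lipid hydrolases work at the low pH so produced. Many of these genes carry a short promoter element that is bound by the related transcription factors TFEB and TFE3.

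Expression is given as FPKM, fragments counted relative to gene length and to a size set for each library, so that levels of different genes can be set side by side. Reads on genes numbered 14752400 to 17312255 per library. The library size implied by the deposited values was not this number and differed by group. It was 1.11 to 1.14 times the reads on genes in control, 0.93 to 0.94 times in LPS and 0.88 to 0.98 times in LPS + G-CDs. The FPKM values of a library summed to 271284 to 314327 in control, 347815 to 349699 in LPS and 333125 to 472870 in LPS + G-CDs. Of 10 macrophage markers 9 were expressed, while no marker of B cells, fibroblasts, epithelial cells or hepatocytes and 1 of 6 T cell markers (Lck) reached 1 FPKM in 3 libraries. The summed T cell markers moved with the groups, at 0.783 to 1.40 FPKM in control, 3.28 to 3.85 in LPS and 4.51 to 6.94 in LPS + G-CDs, with Cd3g and Cd8a at 0 in every library. Summed macrophage markers were at 2664 to 3660, 3872 to 4089 and 3248 to 5342 FPKM. This sum joins markers that moved in opposite directions with LPS, as 4 of the 9 rose at an adjusted p under 0.05 (Cd14 by 2.40 on the log2 scale, Adgre1, Ptprc and Itgam) while Csf1r fell by 1.16 and Lyz2 by 0.88. Of the 50 lysosomal genes, 48 reached that level and were tested. The exceptions were Atp6v0d2, an alternative d subunit of the pump at 0 to 0.173 FPKM, and Ctsh, the gene of cathepsin H at 0.0237 to 0.200 FPKM. Mean levels of the tested genes over the 9 libraries ran from 2.0 FPKM for Tfeb to 553 FPKM for Ctsz.

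The comparison of LPS with control shows how an inflammatory stimulus alone moved the lysosomal genes. With the deposited scaling the glycosidases and the lipid enzymes gave falls and no rises, the proton pump and the cathepsins gave rises and no falls, and of the transcription factors Tfeb fell and Tfe3 rose. The largest falls were those of Tfeb, Psap and Lgmn, and the largest rises those of Ctsc, Atp6v1h and Atp6v0a1. Of the 48 tested genes, 8 rose and 9 fell at an adjusted p under 0.05 (limma on log2(FPKM + 1), Benjamini-Hochberg over 11585 genes), where 15.8% of all genes tested rose and 15.6% fell. The 3 LPS libraries lay wholly above the 3 control libraries for 10 of these genes and wholly below for 14, against 27.4% and 25.1% of all genes tested. Both sets of shares are near those of all genes, and the median log2 fold change of the 48 genes was -0.02 against 0.02 for all genes. Summed over the 50 genes, FPKM was 2707 to 3190 in control and 2536 to 2642 in LPS. Together they made up 0.989% to 1.01% of all FPKM in the control libraries, 0.725% to 0.759% in the LPS libraries and 0.736% to 0.758% in the LPS + G-CDs libraries. In such bulk RNA a lower level per cell and a smaller share of expressing cells cannot be told apart.

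The split between rises and falls depended on the scaling, as it did over the whole table. With each library rescaled to the same sum of FPKM (TPM), a step that shifted the median over the whole table to -0.23, 2 genes rose and 17 fell, where 8.66% of all genes rose and 26.4% fell. With quantile normalization 5 rose and 15 fell, beside 14.1% and 20.3% of all genes, the cathepsin genes Ctsd and Ctss being among the falls of both. Without control replicate 2 or 3 the rises numbered 5, without LPS replicate 1 or 3 they numbered 4 and without LPS replicate 2 they numbered 3, while the falls stayed between 7 and 11 whichever library was left out. The 17 calls became 12, 10 and 11 without LPS replicate 1, 2 and 3, where calls over the whole table fell alike, from 3630 genes to 2511, 2478 and 2488.

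**Figure D1:**
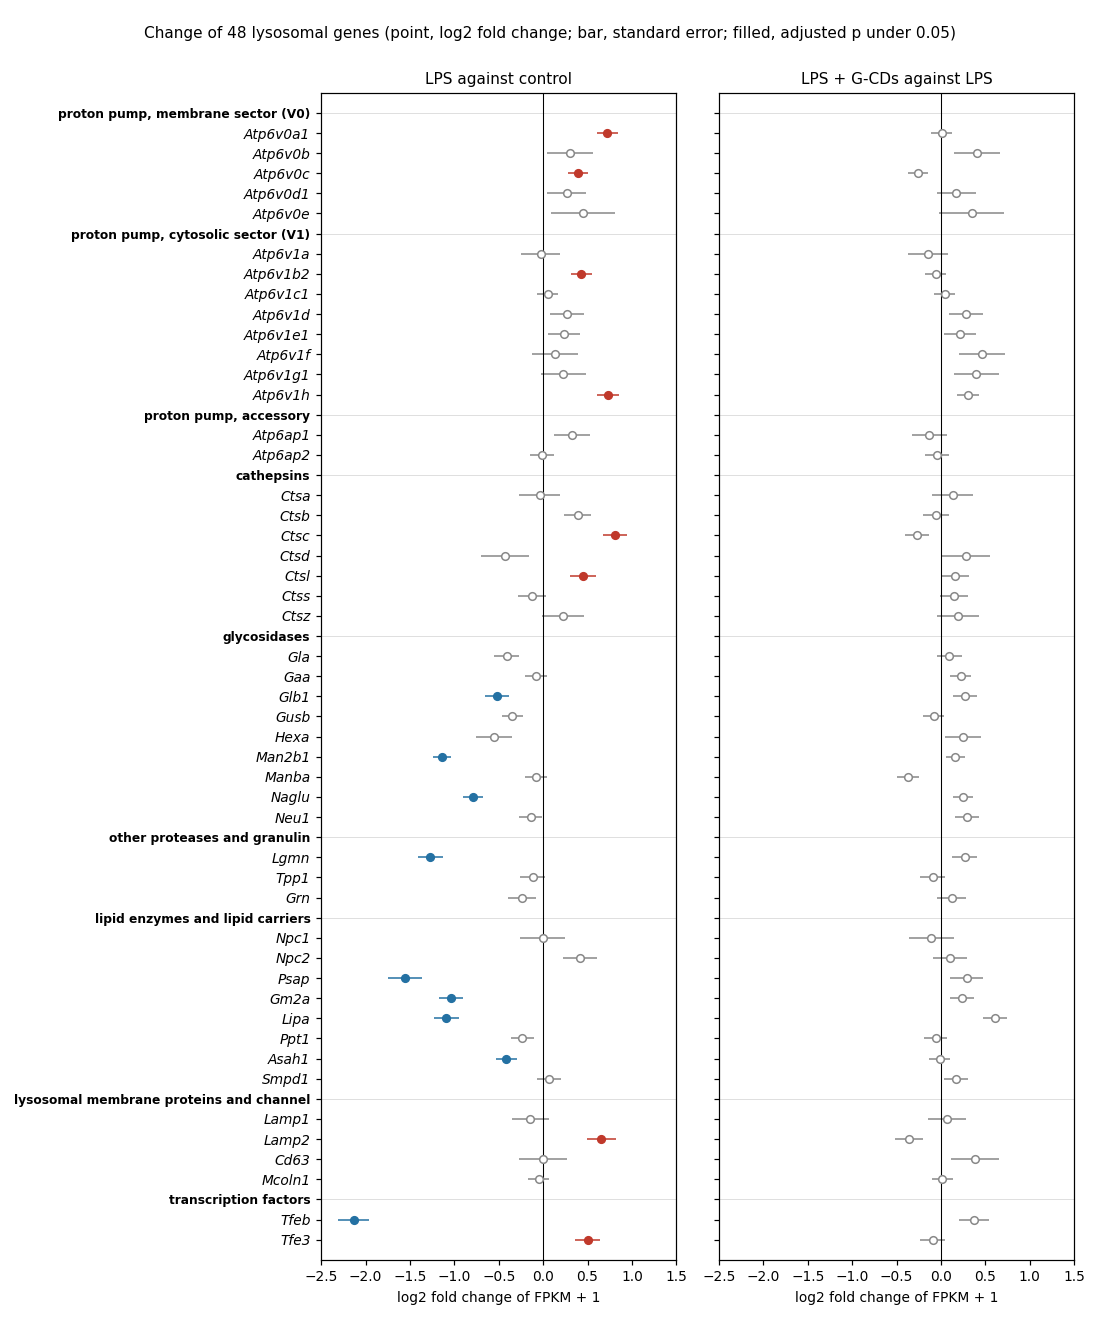
Log2 fold change of FPKM + 1 for the 48 tested lysosomal genes, ordered by function, for LPS against control (left) and LPS + G-CDs against LPS (right), with standard errors as bars and filled points for an adjusted p under 0.05. The 9 glycosidases all lie left of 0 in the left panel, Tfeb is farthest left at -2.14, and no point is filled in the right panel.

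Tfeb (chr17:47737030-47792419, GRCm38, plus strand), the gene of a master regulator of lysosome formation, held 4.24, 4.76 and 5.73 FPKM in control replicates 1, 2 and 3 and 0.459, 0.192 and 0.376 FPKM in the LPS replicates. The libraries of the 2 groups did not overlap, and the number of reads on the gene went from 451, 459 and 578 to 36, 15 and 31. It fell by 2.14 on the log2 scale (SE 0.17, adjusted p = 2.5e-05), the largest change of either sign among the 48 genes, and was called in all 19 alternatives that tested it. Because 1 is added to each FPKM value before the logarithm, this fold understates the change of a gene at so low a level, and by voom on recovered reads Tfeb fell by 3.91. Tfe3 (chrX:7762560-7775202, plus strand), which encodes a factor that binds the same sites, held 8.46, 12.1 and 11.1 FPKM in control and 15.1, 15.3 and 15.1 FPKM in LPS. It rose by 0.50 (SE 0.14, adjusted p = 0.026). The Tfe3 call was lost when any of LPS replicates 1, 2 or 3 was left out, in TPM (log2 fold change 0.27), under quantile normalization (0.42) and with the gene-length trend removed (0.36), and over its 20 alternatives the adjusted p ran from 0.019 to 0.39.

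The element that TFEB and TFE3 bind was looked for in the promoters of the lysosomal genes, since both factors changed. RefSeq promoters (GRCm38.p6, 250 bases before to 50 bases after a start) were matched for 41 of the 50 genes. The E-box CACGTG, which reads the same on both strands, lay in the promoters of 14 of the 41 genes (34.1%), against 8.09% of all 27025 genes of the table and 7.15% of its 32851 promoters. Its longer form TCACGTGA, each copy of which also counts as an E-box, lay in 7 (17.1%), against 1.12% of genes and 0.974% of promoters. The antioxidant response element core TGACNNNGC, searched on both strands, lay in 8 (19.5%), against 14% of genes and 12.4% of promoters. Lamp1 held 4 E-boxes within its 300 bases, the most of the 14 genes. Such matches describe letters and not bound sites.

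The sites shown are those of the 7 genes with the longer form and of the 4 genes with an E-box that changed with LPS, and they were selected after the values were seen. Ctsa and Gla each hold a further copy of the longer form that is not shown. Each is a window of 30 bases on the strand of the gene, with the element in capitals. The windows shown of the longer form lie at chr8:105566050-105566079 (minus strand) for Atp6v0d1, chr17:26676387-26676416 (plus) for Atp6v0e, chr16:44139373-44139402 (minus) for Atp6v1a, chr2:164833749-164833778 (plus) for Ctsa, chr7:142387908-142387937 (minus) for Ctsd, chrX:134601182-134601211 (minus) for Gla and chr8:3500462-3500491 (plus) for Mcoln1. Those of the changed genes lie at chr11:101070009-101070038 (plus) for Naglu, chr12:102439124-102439153 (minus) for Lgmn, chr9:114401018-114401047 (plus) for Glb1 and chr13:64370739-64370768 (minus) for Ctsl.
Atp6v0d1: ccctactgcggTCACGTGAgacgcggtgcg
Atp6v0e: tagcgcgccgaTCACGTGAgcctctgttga
Atp6v1a: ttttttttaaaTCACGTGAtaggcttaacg
Ctsa: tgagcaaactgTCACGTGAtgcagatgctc
Ctsd: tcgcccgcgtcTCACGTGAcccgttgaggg
Gla: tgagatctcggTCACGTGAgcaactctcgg
Mcoln1: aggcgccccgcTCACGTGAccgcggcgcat
Naglu: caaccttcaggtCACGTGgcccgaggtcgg
Lgmn: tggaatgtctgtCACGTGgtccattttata
Glb1: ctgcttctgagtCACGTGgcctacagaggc
Ctsl: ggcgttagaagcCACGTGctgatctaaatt
The 7 genes with TCACGTGA gave 0 rises and 0 falls with LPS at an adjusted p under 0.05, where 15.8% of all genes tested rose and 15.6% fell. Among these genes, Ctsd was called lower in TPM (adjusted p = 0.013) and under quantile normalization (adjusted p = 0.015). Gla was called lower in TPM (adjusted p = 0.013), by voom (adjusted p = 0.042) and without control replicate 2 (adjusted p = 0.042). Of all 14 genes with an E-box, 1 rose (Ctsl) and 3 fell (Naglu, Lgmn and Glb1), and of the 27 matched genes without one, 5 rose and 5 fell.

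Proton pump genes gave 4 rises and 0 falls among 15 tested with LPS, with a median log2 fold change of 0.27 (0.04 in TPM, where the median of all genes was -0.23). The 4 lay in both sectors, with Atp6v0a1 and Atp6v0c in the membrane and Atp6v1h and Atp6v1b2 in the cytosol. Atp6v0a1 (chr11:101009452-101063719, plus strand) encodes an a subunit, which forms the path of the protons. Its FPKM was 5.95, 6.68 and 6.05 in control and 11.3, 11 and 10.5 in LPS, with no overlap. The gene rose by 0.72 (SE 0.12, adjusted p = 0.0019) and was called in 19 of 20 alternatives, TPM being the exception. Atp6v1h (chr1:5070018-5162529, plus strand), whose H subunit links the sectors and governs ATP use, stood at 10.4, 10.6 and 12.4 FPKM in control and at 19.0, 19.6 and 18.7 FPKM in LPS. Its rise was 0.73 (SE 0.13, adjusted p = 0.0023). With a trend on gene length removed the value was 0.58 and the call was lost (adjusted p = 0.069, the highest of its alternatives). Atp6v1b2, the B subunit of the ATP-binding head, went from 30.2, 24.6 and 23.9 FPKM to 34.6, 36.4 and 35.6 FPKM, a rise of 0.43 (SE 0.12, adjusted p = 0.022). That call was lost without control replicate 2 or 3 and without any of LPS replicates 1, 2 and 3. It was also lost under quantile normalization (log2 fold change 0.29, adjusted p = 0.11) and in TPM (0.17, adjusted p = 0.45, the highest of its alternatives).

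The other proton pump genes did not pass the test with LPS. The highest in each set were Atp6v0b, the c″ subunit, at 66.2 ± 17.8 FPKM in control and 80.0 ± 3.93 FPKM in LPS (SD, n = 3), Atp6v1g1, the G subunit of the stalk, at 65.6 ± 20.5 and 74.8 ± 4.15 FPKM, and Atp6ap2, the accessory protein also known as the prorenin receptor, at 52.3 ± 8.60 and 51.3 ± 3.34 FPKM. Their log2 fold changes were 0.30 (SE 0.26), 0.23 (SE 0.25) and -0.02 (SE 0.14). The control libraries of Atp6v0b spread more than its LPS libraries, running from 53.5 to 86.5 FPKM in control and from 76.9 to 84.4 FPKM in LPS. Atp6v0e stood at 8.73 FPKM in control replicate 1 and 21.4 and 28.9 FPKM in the other control libraries. The median of the 15 genes was 0.13 without control replicate 1 and 0.41 without control replicate 3.

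Atp6v0c (chr17:24163866-24169702, minus strand), whose c subunit forms the rotating proton ring, was listed at only 2.87, 3.09 and 3.15 FPKM in control and 4.92, 3.98 and 4.03 FPKM in LPS, the lowest level of the tested pump genes. It rose by 0.39 (SE 0.11, adjusted p = 0.028), a call that was lost without control replicate 1, 2 or 3, LPS replicate 1, 2 or 3, or LPS + G-CDs replicate 2, with no filter on low values and in TPM (log2 fold change 0.21), with adjusted p from 0.015 to 0.44 over the alternatives. A processed copy of the gene, Atp6v0c-ps2 (chr6:37806086-37806550, 465 bases), was listed far above it at 47.0, 207 and 222 FPKM in control, 229, 223 and 241 FPKM in LPS, and 207, 288 and 291 FPKM in LPS + G-CDs. Of the 416 words of 50 bases in the pseudogene, 366 (88%) occur unchanged in Atp6v0c. Reads from these shared stretches cannot be told apart, so the level and the change of the c subunit are uncertain. For the pseudogene itself the log2 fold change was 0.83 (SE 0.51, adjusted p = 0.26) with LPS. Of the words of Atp6v0c itself 12.2% occur in a further gene. Genes with over 15% were Ctsd (36.6%), Ctsl (28.1%), Atp6v1g1 (19.2%), Ctsa (15.8%) and Ctsb (15.4%).

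**Figure D2:**
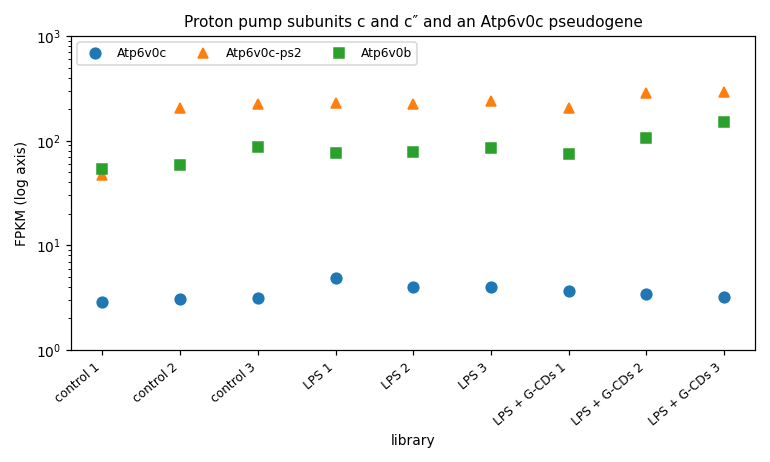
FPKM on a log axis in each of the 9 libraries for Atp6v0c (circles), its pseudogene Atp6v0c-ps2 (triangles) and Atp6v0b (squares). Atp6v0c stays between 2.87 and 4.92 FPKM, while the pseudogene is at 207 to 291 FPKM except in control replicate 1, where it is at 47.0 FPKM.

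Cathepsin genes gave 2 rises and 0 falls among 7 tested, where 15.8% of all genes tested rose and 15.6% fell. Their median log2 fold change of 0.22 turned to -0.05 in TPM and -0.16 under quantile normalization and was 0.12 without control replicate 2. Ctsc (chr7:88278085-88310888, plus strand) encodes cathepsin C, which activates the serine proteases of granules. Its libraries held 4.2, 6.39 and 5.56 FPKM in control and 9.69, 10.6 and 9.96 FPKM in LPS. It rose by 0.81 (SE 0.14, adjusted p = 0.0021), the largest rise of the 48 genes, in all 20 alternatives. Ctsl, the gene of the cysteine protease cathepsin L, went from 36.7, 27.3 and 31.1 FPKM to 43.7, 42.2 and 44.1 FPKM. Its rise of 0.45 (SE 0.15) had an adjusted p of 0.049 and was called in 8 of 20 alternatives (adjusted p 0.024 to 0.30). Leaving out control replicate 2 or 3, LPS replicate 1, 2 or 3, or LPS + G-CDs replicate 2 ended this call, and so did the replicate block (adjusted p = 0.057). It was also lost in TPM (log2 fold change 0.19), under quantile normalization (0.30), with the gene-length trend removed (0.40), with no filter on low values and without the eBayes trend. Ctsz, the gene of the carboxypeptidase cathepsin Z, was the highest of all 48 genes. It held 477, 403 and 531 FPKM in control and 564, 510 and 564 FPKM in LPS, groups that overlap, with a log2 fold change of 0.22 (SE 0.24, adjusted p = 0.52) that turned negative in TPM and under quantile normalization. With the gene-length trend removed Ctsz was called higher, at 0.38 (adjusted p = 0.034). The aspartic protease gene Ctsd stood at 85.5 to 91.9 FPKM in LPS and 97.6 to 157 FPKM in control, and its log2 fold change of -0.43 (SE 0.27, adjusted p = 0.27) did not pass.

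All 9 glycosidases had a negative log2 fold change with LPS, where 5672 of the 11585 genes tested had one. Their median was -0.41 (-0.74 in TPM, where the median of all genes was -0.23). Of the 9, 3 fell, against 15.6% of all genes tested. In 6 of the 9 the LPS libraries lay wholly below control, against 25.1% of all genes tested. Man2b1 (chr8:85083270-85098282, plus strand), the lysosomal alpha-mannosidase, held 17.9, 15.7 and 16.6 FPKM in control and 7.23, 6.80 and 7.15 FPKM in LPS. It fell by 1.14 (SE 0.10, adjusted p = 5.2e-05). Naglu (chr11:101070012-101077672, plus strand) makes an enzyme that trims heparan sulfate. Its FPKM of 16.4, 15.9 and 18.5 in control and 9.96, 8.80 and 9.37 in LPS gave a fall of 0.79 (SE 0.11, adjusted p = 0.00077). Both falls were called in all 20 alternatives. Glb1, the acid beta-galactosidase, went from 10.4, 12.6 and 13.5 FPKM to 8.35, 8.19 and 7.80 FPKM and fell by 0.52 (SE 0.13, adjusted p = 0.016), a call lost without control replicate 3, LPS replicate 2 or LPS replicate 3 (adjusted p up to 0.065).

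Hexa, the alpha subunit of beta-hexosaminidase, was the most abundant glycosidase. Its 98.8, 123 and 151 FPKM in control stood above the 84.5, 80.5 and 84.1 FPKM in LPS, and the log2 fold change of -0.56 (SE 0.20) missed the threshold at an adjusted p of 0.064. It passed in 9 of 20 alternatives, among them the replicate block (adjusted p = 0.03) and the fits without control replicate 1, LPS + G-CDs replicate 1 and LPS + G-CDs replicate 3. Gla and Gusb also had groups that did not overlap, with log2 fold changes of -0.41 (SE 0.14, adjusted p = 0.052) and -0.35 (SE 0.12, adjusted p = 0.051). The smallest values among the 9 were -0.08 for Manba and -0.08 for Gaa.

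Among the enzymes and carriers of lipids 4 of 8 fell and none rose at an adjusted p under 0.05, where 15.6% of all genes tested fell and 15.8% rose. Psap (chr10:60277627-60302597, plus strand) encodes prosaposin, the precursor of the saposins that present sphingolipids to their hydrolases. It held 401, 256 and 257 FPKM in control and 108, 94.0 and 101 FPKM in LPS, and fell by 1.55 (SE 0.19, adjusted p = 0.00029), the largest fall after Tfeb. Lipa (chr19:34492318-34527474, minus strand), the acid lipase that splits cholesteryl esters and triglycerides, went from 80.3, 101 and 94.5 FPKM to 43.4, 43.4 and 40.7 FPKM. The fall was 1.09 (SE 0.14, adjusted p = 0.00036). Gm2a (chr11:55098115-55113029, plus strand), the activator that lifts GM2 ganglioside out for hexosaminidase, stood at 9.50, 13.2 and 12.8 FPKM in control and 5.33, 5.39 and 4.83 FPKM in LPS, a fall of 1.04 (SE 0.14, adjusted p = 0.00046). These 3 falls were called in all 20 alternatives. Asah1, the acid ceramidase, fell by 0.42 (SE 0.12, adjusted p = 0.026), and its call was lost without control replicate 1 or 2, without LPS replicate 1, 2 or 3 (adjusted p up to 0.098) and with the gene-length trend removed (log2 fold change -0.35, adjusted p = 0.064). Neither cholesterol carrier passed, with a log2 fold change of 0.41 (SE 0.19, adjusted p = 0.14) for the soluble Npc2 and -0.01 (SE 0.26, adjusted p = 0.99) for the membrane protein Npc1.

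Lgmn (chr12:102394084-102439813, minus strand) encodes legumain, an asparaginyl protease that also processes cathepsins. It held 147, 127 and 139 FPKM in control and 58.1, 54.7 and 56.4 FPKM in LPS, with no overlap, and fell by 1.27 (SE 0.14, adjusted p = 0.0002) in all 20 alternatives. The genes set beside it did not pass, with -0.12 for the tripeptidyl peptidase Tpp1 and -0.24 for the progranulin gene Grn. In the lysosomal membrane Lamp2 (chrX:38401357-38456454, minus strand), a heavily glycosylated protein needed for fusion with autophagosomes, went from 12.2, 17.3 and 14.0 FPKM to 22.9, 25.3 and 21.6 FPKM. It rose by 0.66 (SE 0.16, adjusted p = 0.014), a call that was lost in TPM (adjusted p = 0.23, the highest of its alternatives) and without LPS replicate 2. Its relative Lamp1, the most abundant of the membrane proteins, held 137, 236 and 239 FPKM in control and 175, 182 and 179 FPKM in LPS, a log2 fold change of -0.14 (SE 0.21, adjusted p = 0.65). Control replicate 1 lay apart for Lamp1, and without it the value was -0.41 and passed the test. The tetraspanin gene Cd63 and the calcium channel gene Mcoln1 did not pass, at adjusted p of 1.0 and 0.78.

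**Figure D3:**
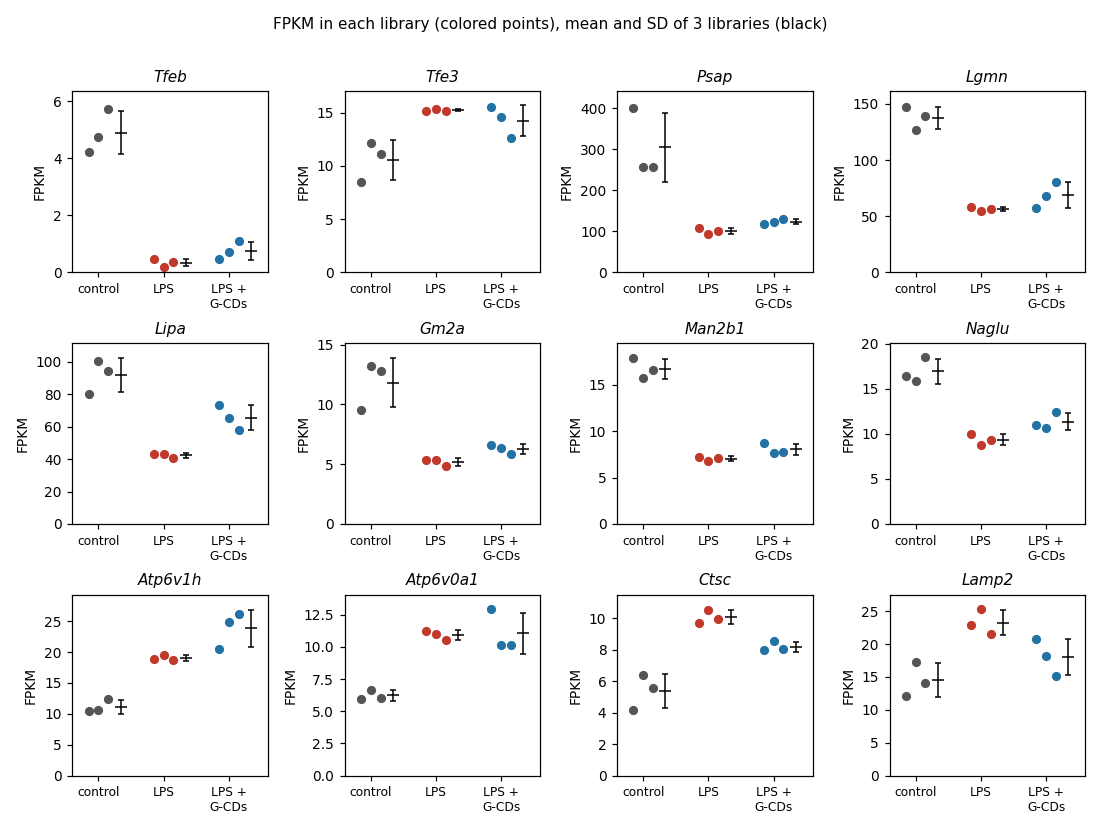
FPKM of 12 lysosomal genes in each library (points), with mean and SD of the 3 libraries of a group in black. The 12 were picked from genes called with LPS. LPS libraries lie below control for Tfeb, Psap, Lgmn, Lipa, Gm2a, Man2b1 and Naglu and above control for Tfe3, Atp6v1h, Atp6v0a1, Ctsc and Lamp2. The LPS + G-CDs libraries lie wholly between the other groups for Lipa, Psap, Gm2a, Man2b1, Naglu and Ctsc, and none of the 12 passed with G-CDs. Over all genes tested, the LPS + G-CDs libraries lay wholly above LPS for 12.9% and wholly below for 15%. How many of all genes lay between the other groups was not counted.

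The comparison of LPS + G-CDs with LPS asks whether the carbon dots altered the response to LPS, and it shares the 3 LPS libraries with the comparison above. None of the 48 genes passed the test. By limma 0 were called in either direction, where 0.25% of all 11585 genes rose and 0.242% fell, and 0 were called in any of the 20 alternative fits, voom on recovered reads included. At an unadjusted p under 0.05 there were 3, Lipa and Atp6v1h with positive values and Manba with a negative value, against 15.2% over the whole table. In 9 of the genes each LPS + G-CDs library was above every LPS library and in 4 each was below, against 12.9% and 15% of all genes. The 95% confidence intervals reached a median of 0.33 to either side of the estimate on the log2 scale.

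Lipa showed the lowest p of the 48. Its LPS + G-CDs libraries held 73.5, 65.2 and 58.0 FPKM, all above the LPS libraries at 40.7 to 43.4 FPKM and all below the control libraries at 80.3 to 101 FPKM. The log2 fold change was 0.61 (SE 0.14, 95% interval 0.30 to 0.92), with an unadjusted p of 0.0016 and an adjusted p of 0.13 that ran from 0.062 to 0.46 over the alternatives. It was the only gene of the 48 past an unadjusted p under 0.01 and 1.5-fold, a threshold that 2.49% of all genes passed. Psap, Lgmn and Gm2a, which also fell with LPS, had log2 fold changes of 0.29 (SE 0.19), 0.27 (SE 0.14) and 0.24 (SE 0.14) with G-CDs, with adjusted p of 0.39, 0.34 and 0.36.

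Tfeb stood at 0.451, 0.711 and 1.09 FPKM in the LPS + G-CDs libraries, the lowest of which is within the range of LPS. Its log2 fold change of 0.37 (SE 0.17) had an adjusted p of 0.33. At so low a level the added 1 understates this fold too, and over the alternatives it ran from 0.24 to 1.11 without a call. All 3 LPS + G-CDs libraries remained below the control range of 4.24 to 5.73 FPKM. For Tfe3 the libraries held 15.5, 14.6 and 12.7 FPKM and the log2 fold change was -0.09 (SE 0.14, adjusted p = 0.70).

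With G-CDs the median log2 fold change was 0.17 for the proton pump, 0.14 for the cathepsins and 0.22 for the glycosidases, against 0.02 for the whole table. In TPM, where the median of the whole table was -0.14, they were 0.01, -0.02 and 0.06, and under quantile normalization that of the cathepsins was -0.04. Atp6v1h held 20.4, 24.9 and 26.1 FPKM, each above LPS, with a log2 fold change of 0.30 (SE 0.13, adjusted p = 0.32). Atp6v0a1 at 12.9, 10.1 and 10.1 FPKM straddled the LPS libraries, with a value of 0.01 (SE 0.12, adjusted p = 0.97) and a 95% interval from -0.26 to 0.28. The beta-mannosidase gene Manba, at 8.49, 9.06 and 8.75 FPKM in LPS, held 7.19, 6.75 and 5.79 FPKM with G-CDs, which is below every LPS library, and its value was -0.37 (SE 0.13, adjusted p = 0.28). Lamp2 and Ctsc, both risen with LPS, had 20.7, 18.2 and 15.2 FPKM and 7.97, 8.56 and 8.03 FPKM. Their log2 fold changes were -0.36 (SE 0.16, adjusted p = 0.33) and -0.27 (SE 0.14, adjusted p = 0.34), and in both the 3 libraries lay below those of LPS.

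The LPS + G-CDs libraries differed among themselves in these genes. The median of the 48 genes above the mean of the LPS libraries, on the log2 scale, was -0.02, 0.14 and 0.27 in LPS + G-CDs replicates 1, 2 and 3, where that of all tested genes was -0.01, 0.02 and 0.04. Summed cathepsin FPKM ran with it, at 1006, 1278 and 1672, around LPS values of 1128 to 1195. The sum of all FPKM of these libraries rose alike, from 333125 to 382451 and 472870, and as a share of it the cathepsins made up 0.302%, 0.334% and 0.354%, against 0.323% to 0.344% in LPS. For Ctsz the libraries held 453, 618 and 858 FPKM, and for Atp6v0b 75.1, 106 and 150 FPKM, so that each group of 3 spans the LPS level. Gene length moved with this spread. The 24 genes up to the median length of 3707.5 bases had medians of -0.04, 0.20 and 0.37 in the 3 libraries, and the 24 longer genes 0.00, 0.05 and 0.13. All tested genes up to that length had -0.03, 0.17 and 0.38, and all longer ones -0.01, -0.11 and -0.24. Control replicate 3 was apart in the same way, with medians over all genes of 0.23 up to that length and -0.18 over it, against -0.03 to 0.00 in the other control libraries. In control replicates 1, 2 and 3 the 24 shorter lysosomal genes had medians of 0.14, 0.01 and 0.30, and the 24 longer ones -0.12, -0.08 and -0.13. With a trend on gene length removed, the glycosidase median became 0.08. Without LPS + G-CDs replicate 1 the proton pump median was 0.32, and without replicate 3 it was 0.06 and the cathepsin median was -0.01.

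**Figure D4:**
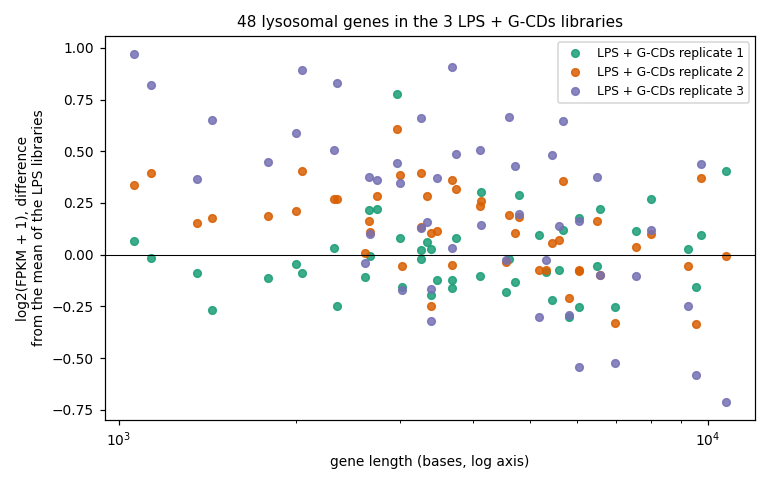
Difference of log2(FPKM + 1) from the mean of the LPS libraries for the 48 tested genes in each LPS + G-CDs library, against gene length in bases on a log axis. In replicate 3 the median is 0.37 for the 24 genes up to 3707.5 bases and 0.13 for the 24 longer ones, and in replicate 1 it is -0.04 and 0.00.

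A wider set of 116 lysosomal genes in 7 lists, none of them among the 50, was read in the same way, and 94 were tested. With LPS 11 of the 94 rose and 27 fell, where 15.8% of all genes tested rose and 15.6% fell. By function, 1 rose and 6 fell of 20 glycosidases and sulfatases, 1 rose and 4 fell of 8 lipases, nucleases and phosphatases, 4 rose and 8 fell of 23 membrane proteins and transporters, and 0 rose and 2 fell of 4 proteases. Delivery to the lysosome gave 2 rises and 4 falls of 19, the mTORC1 and TFEB control genes 2 and 2 of 16, and the other pump subunits 1 and 1 of 4. The pump gene that rose was Tcirg1, the a3 subunit, named here after its value was seen, at 45.1 to 54.0 FPKM in control and 82.2 to 97.9 FPKM in LPS (log2 fold change 0.84, SE 0.13, adjusted p = 0.0014). The pump gene that fell was Atp6v0e2, an alternative e subunit, likewise named after its value was seen. It held 6.61 to 11.8 FPKM in control and 3.04 to 3.41 FPKM in LPS and fell by 1.22 (SE 0.18, adjusted p = 0.0011), in all 20 alternatives.

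The 5 largest changes of the wider set with LPS were 2 rises and 3 falls. Slc15a3, a peptide and histidine transporter of endolysosomes, held 5.19, 4.76 and 5.34 FPKM in control and 110, 101 and 108 FPKM in LPS, a rise of 4.14 (SE 0.11, adjusted p = 2.6e-08). Slc11a2, the divalent metal transporter DMT1, rose by 1.79 (SE 0.13, adjusted p = 1.1e-05). The cation channel gene Tpcn1 fell by 1.92 (SE 0.16, adjusted p = 3.5e-05), the heparan sulfatase gene Sgsh by 1.85 (SE 0.17, adjusted p = 5.4e-05) and the acid amidase gene Naaa by 1.81 (SE 0.16, adjusted p = 3.6e-05). For Sgsh and Naaa, both near 1 FPKM in LPS, the fold is understated in the same way, and by voom their log2 fold changes were -2.78 and -2.53.

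With G-CDs 1 of the 94 genes passed the test, where 0.25% of all genes tested rose and 0.242% fell. Slc11a1, the metal transporter NRAMP1 of phagosomes and late endosomes, held 12.8, 12.5 and 13.4 FPKM in control, 16.8, 15.4 and 17.0 FPKM in LPS and 30.7, 30.8 and 32.4 FPKM in LPS + G-CDs. It rose by 0.89 with G-CDs (SE 0.10, adjusted p = 0.0068), and the 3 groups did not overlap. The call was lost in TPM (adjusted p = 0.088) and without LPS replicate 1, LPS replicate 2 or LPS + G-CDs replicate 2 (adjusted p = 0.068, 0.074 and 0.067), and the log2 fold change stayed between 0.75 and 0.93 over all alternatives.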

How the data were processed

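Total RNA of RAW264.7 cells was poly(A)-selected and sequenced by the authors on an Illumina instrument. The deposited values are FPKM per gene and library, with gene coordinates and lengths, on GRCm38 (mm10) per the submitters' processing notes. The aligner, counting program and test are not given in the sources used here. FPKM multiplied by gene length and scaled by a library size recovered from the values gave whole reads (within 0.05 of a read) for 100% of values. These reads served for depth and for 1 alternative. The recovered size was 0.88 to 1.14 times the reads on genes.

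The 11585 genes that reached an FPKM of 1 in 3 or more of the 9 libraries were tested as log2(FPKM + 1) with limma 3.58.1 in R 4.3.3 (lmFit, eBayes with trend, 3 groups in 1 model, two-sided, Benjamini-Hochberg over all genes tested), checked on simulated data. P-values measure the spread between these libraries only, which may be technical. Tables were made with Python 3.11.15 and pandas 2.3.3.

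The genes and lists were chosen with earlier results of these data known. Members were named if called with G-CDs, if among the 3 largest called changes of their list with LPS, if highest in their list, if Tfeb or Tfe3, or if among the 3 largest changes with G-CDs without overlap. Other pathway genes were named if among the 5 largest called changes of a comparison. Further genes, among them Asah1, Npc1, Npc2, Ctsd, Gla, Gusb, Gaa, Tpp1, Grn, Cd63, Mcoln1, Atp6v0e, Tcirg1 and Atp6v0e2, were named after their values were seen.

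Groups share replicate numbers, whose meaning no source states. After subtraction of group means, control and LPS libraries of the same number had correlations of 0.103, 0.137 and 0.113. These are small, and libraries of different numbers were not compared, so they do not show whether the numbers pair the libraries. A replicate block is among the 20 alternative fits. Promoters were from RefSeq, and words of 50 bases were compared over GENCODE M21 transcripts.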

Additional observations from a re-analysis of the deposited data

How the results depend on the processing

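For LPS against control, an unadjusted p under 0.01 and over 1.5-fold gave 11 genes, 4 of them higher. TPM gave 2 higher and 17 lower, and quantile normalization 5 and 15. Leaving out libraries gave 10 to 20 calls, 3 to 9 of them higher. The replicate block kept 16 of the 17 calls, with Ctsl lost (0.45) and Hexa gained (-0.56), and changed no other call of either comparison among the lysosomal genes. For LPS + G-CDs against LPS same-numbered libraries correlated at 0.095, 0.080 and 0.143, which likewise does not show whether they are paired.

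The proton pump median with LPS was 0.0357 in TPM, 0.16 under quantile normalization, 0.41 with the gene-length trend removed and 0.13 to 0.41 leaving out libraries. Cathepsins gave -0.0467, -0.16 and 0.36 under the first 3 of these and 0.12 to 0.31 leaving out libraries. Glycosidases gave -0.74, -0.53 and -0.34, with -0.53 at a pseudocount of 0.1, -0.57 by voom and -0.50 to -0.36 leaving out libraries. With G-CDs the threshold on unadjusted p and fold gave 1 gene, which was higher. In this comparison TPM moved the median of all genes tested to -0.14, from 0.02. The pump median was 0.0085 in TPM and 0.0626 to 0.32 leaving out libraries, that of cathepsins -0.0249 in TPM and -0.0354 under quantile normalization, and that of glycosidases 0.0602 in TPM and 0.0843 with the gene-length trend removed.

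Signs of values that did not pass turned, those in TPM beside its shift of all genes (-0.23 with LPS and -0.14 with G-CDs). With LPS, Atp6v1g1 was -0.0377 in TPM, Ctsz -0.0467 in TPM and -0.16 under quantile normalization, and Atp6ap2 0.0035 by median-of-ratios scaling, 0.0924 with the length trend removed and -0.11 to 0.11 leaving out libraries. With G-CDs, Atp6v0a1 was -0.15 in TPM, -0.000341 by median-of-ratios scaling, -0.00011 by voom and -0.0977 to 0.0626 leaving out libraries. Ctsl was -0.0052 in TPM. Ctsz was -0.12 under quantile normalization, -0.0883 with the length trend removed and -0.0437 to 0.42 leaving out libraries. Lamp1 was -0.10 in TPM, -0.12 under quantile normalization and -0.10 with the length trend removed, and Tfe3 0.14 with the length trend removed. The causes were not tested. Of the other values of the 23 genes chosen by the naming rule, 844 kept their direction and their side of the threshold, 41 lost the call and 11 gained it. The 3 libraries a group limit what could be seen, and depth limits Tfeb, with 15 to 36 reads in the LPS libraries.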
